A study of Mus musculus with 14 samples.

Results

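The 8 erythroid genes described here were chosen by name from the 28022 genes of the count table and followed through all 7 conditions and 14 libraries: the globins Hba-a1, Hbb-bs and Hbb-bt, the haem synthesis enzyme Alas2, the transcription factors Klf1 and Gata1, the anion exchanger Slc4a1 and the erythropoietin receptor Epor. All 8 are in the table and all 8 passed the filter on low counts, Gata1 through the fetal liver libraries alone, so that the filter itself favours a higher call there. The material was of the mouse strain C57BL/6J, with 2 RNA-seq libraries each of embryonic fibroblasts (Fib), 2D-iHepSC, 2D-iHepSCiEC, 3D-iHA, 3D-iHEA, Adult-Liver and Fetal-Liver. The iHepSCs are induced hepatic stem cells made from mouse embryonic fibroblasts with lentiviral Oct4 and Hnf4α, so the 4 cultures share these 2 transgenes. 2D-iHepSC (2D-iH) is their monolayer, 3D-iHA (iHLO) their organoid, and 2D-iHepSCiEC (2D-iHE) and 3D-iHEA (iHEA) are the co-cultures with iECs, endothelial cells that were induced with ETV2 from a human fibroblast line. In the co-cultures a human transcript was counted only where its reads aligned to the mouse genome. The labels give no age or sex of the animals, while the methods describe adult male mice and mid-gestation embryos for the PCR assays of the same tissues. Every label reads replicate 1, and neither labels nor methods say that the 2 libraries of a condition came from separate animals or cultures, so the p-values measure the spread between these libraries, which may be technical. The fetal pair differed in 4 genes of the Y chromosome by CPM ratios of 0.170 to 0.209, and the origin of this difference was not tested.

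Red cells are made in the fetal liver from mid-gestation until the bone marrow takes over. Erythropoietin binds its receptor Epor on early progenitors and keeps them alive through Jak2 and Stat5. Gata1 and Klf1 bind the control regions of most red cell genes, among them those of the globins, the haem pathway and the membrane skeleton. Alas2 is the erythroid form of the first enzyme of haem synthesis, and the haem made at the end of that pathway is held by the globin chains. Slc4a1, also called band 3, exchanges chloride for bicarbonate and anchors the spectrin skeleton to the membrane. Mouse globin genes lie in 2 clusters, alpha on chromosome 11 and beta on chromosome 7, and the first red cells of the yolk sac use Hba-x, Hbb-y and Hbb-bh1.

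The adult chains come as near copies, which bears on how their reads can be told apart. Hba-a1 lies at chr11:32283511-32284465 on the plus strand with its copy Hba-a2 at chr11:32296489-32297298. Hbb-bs and Hbb-bt lie at chr7:103826534-103828096 and chr7:103812524-103813996, both on the minus strand (GRCm38, GENCODE). The 426 coding bases of Hba-a1 and Hba-a2 were 99.77% identical and the 441 coding bases of Hbb-bs and Hbb-bt likewise 99.77%, with 1 differing base in each pair and a shared run of 380 and 416 bases before it. The stretches shown are the 90 coding bases that end at that base, in capitals, and positions are counted from the A of the start codon. The change is C381T from Hba-a1 to Hba-a2 and C417T from Hbb-bs to Hbb-bt.
Hba-a1: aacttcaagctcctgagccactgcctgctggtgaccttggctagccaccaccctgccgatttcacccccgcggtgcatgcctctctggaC
Hba-a2: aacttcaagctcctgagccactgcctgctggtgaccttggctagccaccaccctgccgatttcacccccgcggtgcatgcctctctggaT
Hbb-bs: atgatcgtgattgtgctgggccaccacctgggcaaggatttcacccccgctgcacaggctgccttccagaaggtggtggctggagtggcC
Hbb-bt: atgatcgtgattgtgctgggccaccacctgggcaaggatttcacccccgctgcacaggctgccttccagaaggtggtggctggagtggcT
How reads that match both copies were counted is not stated in the sources used here, so the split within each pair is uncertain. The sum of a pair does not depend on the split, but would be too low if such reads were dropped. By contrast, Hba-x shared 61.74% of the coding bases of Hba-a1, and Hbb-y and Hbb-bh1 shared 74.38% and 73.92% of those of Hbb-bs.

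The remaining genes lie elsewhere: Alas2 at chrX:150547375-150570638 on the plus strand, Klf1 at chr8:84901928-84905291 on the plus strand, Gata1 at chrX:7959260-7978071, Slc4a1 at chr11:102348824-102366203 and Epor at chr9:21958897-21963506, the last 3 on the minus strand. Alas2 overlaps Apex2 and Mir3620 on the opposite strand, and because the strand setting of the counting is not stated, reads of Alas2 and of these genes cannot be told apart where they overlap. The other 7 genes overlap no annotated gene.

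The 8 genes share a pattern over the conditions, so the 250 bases before their RefSeq start sites (GRCm38.p6) were searched on both strands for GATA with A or T before it and A or G after it, which the GATA factors bind, and for CCNCNCCC, a pattern of the Klf family. A window was given for 7 of the 8 genes, all but Slc4a1. The 4 windows shown are those of the 3 globins and Alas2, which stand for the globin chains and the haem pathway of haemoglobin, with both patterns in capitals.
Hba-a1 chr11:32283422-32283671 (+): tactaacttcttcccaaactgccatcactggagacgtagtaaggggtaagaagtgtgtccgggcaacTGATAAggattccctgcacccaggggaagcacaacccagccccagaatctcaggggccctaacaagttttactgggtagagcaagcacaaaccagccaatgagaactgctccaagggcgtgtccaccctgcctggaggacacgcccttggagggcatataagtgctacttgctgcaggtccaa
Hbb-bs chr7:103827929-103828178 (-): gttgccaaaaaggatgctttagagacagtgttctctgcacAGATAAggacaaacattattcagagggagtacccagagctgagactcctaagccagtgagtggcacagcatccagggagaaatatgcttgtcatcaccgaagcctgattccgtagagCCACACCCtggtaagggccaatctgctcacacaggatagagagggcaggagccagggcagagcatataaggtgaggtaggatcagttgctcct
Hbb-bt chr7:103813924-103814173 (-): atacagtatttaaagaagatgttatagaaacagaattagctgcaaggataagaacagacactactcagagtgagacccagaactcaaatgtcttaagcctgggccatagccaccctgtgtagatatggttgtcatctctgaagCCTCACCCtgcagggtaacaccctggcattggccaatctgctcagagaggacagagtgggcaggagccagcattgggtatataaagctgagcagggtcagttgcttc
Alas2 chrX:150547167-150547416 (+): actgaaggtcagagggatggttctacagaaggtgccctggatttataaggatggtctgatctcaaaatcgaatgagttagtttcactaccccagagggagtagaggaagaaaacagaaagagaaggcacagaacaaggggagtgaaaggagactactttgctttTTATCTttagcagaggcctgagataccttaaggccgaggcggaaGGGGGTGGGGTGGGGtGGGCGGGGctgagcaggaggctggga
The GATA letters stood in 5 of the 7 windows (Hba-a1, Hbb-bs, Alas2, Klf1 and Epor), and 26.54% of all 32851 windows hold them. CCNCNCCC stood in 5 of the 7 (Hbb-bs, Hbb-bt, Alas2, Gata1 and Epor), and 45.93% of all windows hold it. In the Hbb-bs window the GATA letters began 210 bases and CCACACCC 93 bases before the start, while the Hbb-bt window held CCTCACCC at 107 bases and no GATA match. All 4 windows shown reach into the longer GENCODE gene model, and a match describes letters in a window and not a bound site.

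Total counts ranged from 20851489 to 35143325. The TMM factors, which scale the libraries to one another, were 0.432 and 0.442 in adult liver and 1.09 to 1.21 in the other 12 libraries, so CPM, the counts scaled to a common library size, in adult liver are raised by the scaling. On library totals alone the median of all genes moved by 1.45 on the log2 scale between fetal and adult liver. The labelled tissues carried their markers. Alb, serum albumin, had 8113083 and 7888792 counts in adult liver and 384483 and 268280 in fetal liver, and Afp, its fetal relative, had 105 and 107 counts in adult liver and 432944 and 336523 in fetal liver. The summed CPM of 9 fibroblast and stellate markers was 26166 and 27553 in fibroblasts and 4.34 to 13.0 in the cultures. The chi-square per gene between the 2 libraries of a condition, which is near 1 for reads drawn from 1 pool, was 13.4 in fetal liver, 11.5 in iHEAs and 3.05 to 3.67 in the other 5 conditions, so the fetal pair stood furthest apart.

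**Figure D1:**
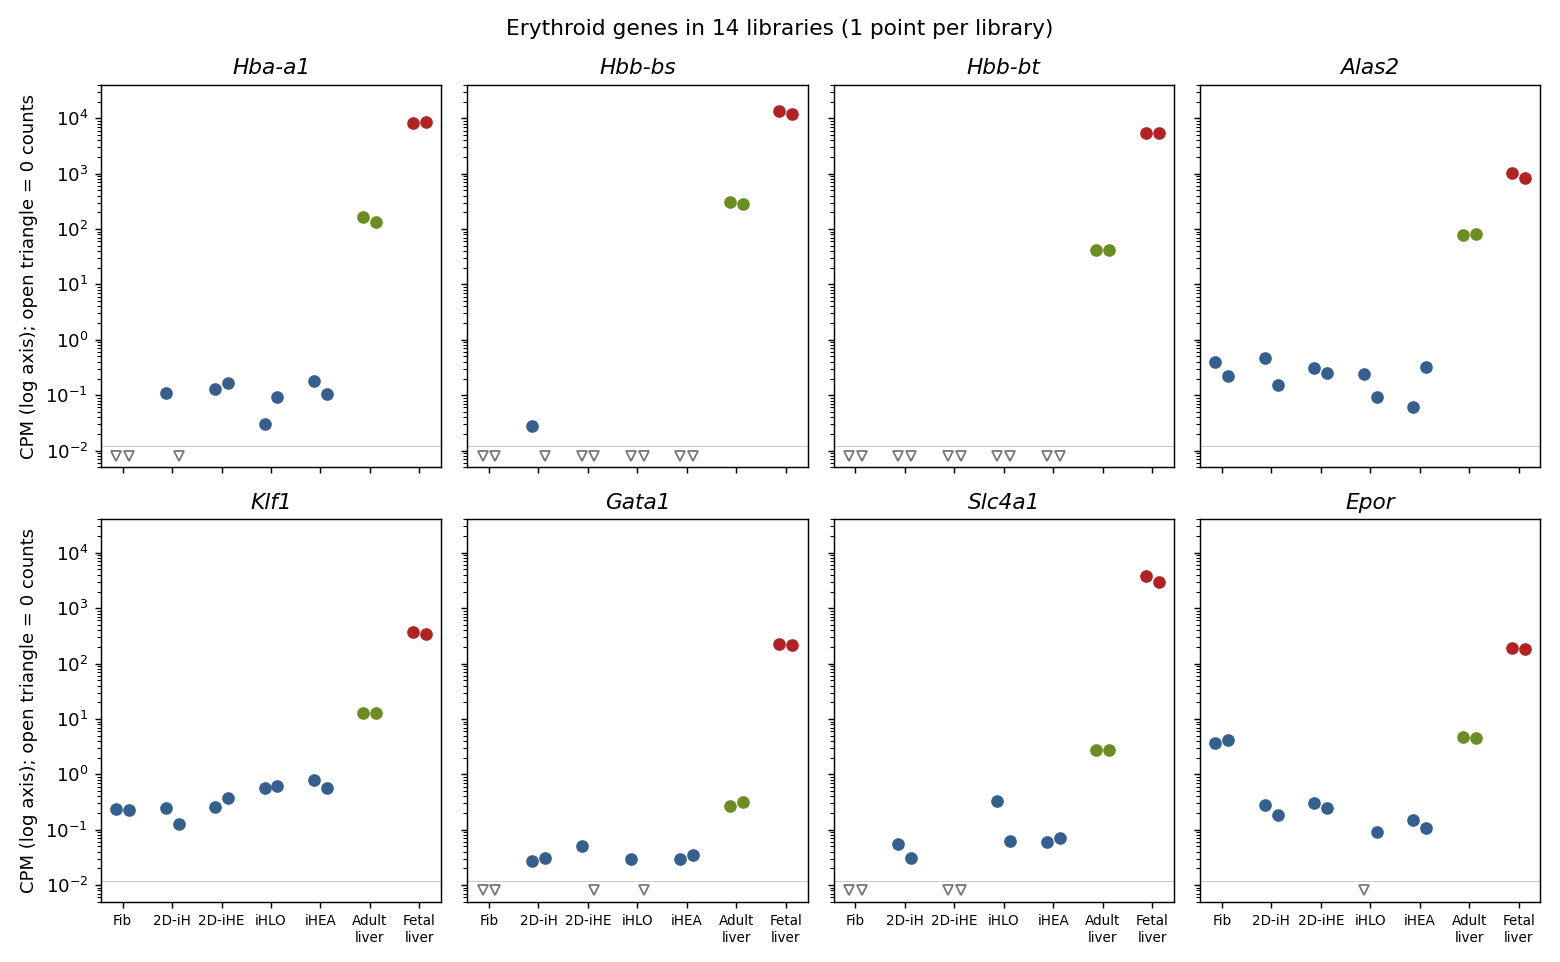
CPM of each of the 8 genes on a log axis, with 1 point per library, 2 libraries per condition and open triangles for libraries with 0 counts. The fetal liver points (red) lie above all others in every panel, from 182 CPM for Epor to 13416 CPM for Hbb-bs.

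All 8 genes were highest in fetal liver. In edgeR's quasi-likelihood test with Benjamini-Hochberg adjustment over 16987 genes, 8 of 8 were higher in fetal than in adult liver, where 43.2% of all genes tested were higher and 37.2% lower. The median difference was 5.63 on the log2 scale for the 8, 5.42 for the 7 without Gata1, and 0.17 for all genes. Against fibroblasts 8 of 8 were higher (44.6% of all genes) and against the mean of the 4 cultures 8 of 8 (46.8% of all genes). In these bulk libraries fewer red cells and less RNA per red cell cannot be told apart.

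In fetal liver the 3 globins were the most abundant of the genes. Hba-a1, an adult alpha chain, had 280603 and 268674 counts in fetal liver, 2404 and 2079 in adult liver, 0 in both fibroblast libraries and 0 to 6 in the 8 culture libraries. Hbb-bs, a beta chain, had 454653 and 370893 counts in fetal liver and 4568 and 4409 in adult liver, with 1 count in 2D-iH library 1 and 0 in the other 9 libraries. Hbb-bt, its neighbour, had 182068 and 168059 counts in fetal liver, 630 and 644 in adult liver and 0 in the 10 libraries of fibroblasts and cultures. No fetal value came near an adult one, and no adult value near those of the cells in culture. The rise from adult to fetal liver was 5.84 ± 0.12 (log2 fold change ± SE, n = 2 libraries each, edgeR adjusted p = 6.78e-17) for Hba-a1, 5.42 ± 0.11 (adjusted p = 1.04e-14) for Hbb-bs and 7.01 ± 0.09 (adjusted p = 1.38e-15) for Hbb-bt.

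Against the fibroblasts, where the 3 globins had 0 counts, a fold is only a lower bound. Taking 3 counts over both fibroblast libraries as the floor, fetal liver held at least 194023-fold more Hba-a1, at least 291611-fold more Hbb-bs and at least 123677-fold more Hbb-bt in CPM. Intervals and floors here cover counting error only. The 26 Hba-a1 counts of all 8 culture libraries gave a fetal to culture ratio of 84453 (95% counting interval 57637 to 129286). Globin genes together took 3.76% and 3.84% of all counts in the fetal libraries and 0.0243% and 0.0226% in the adult ones. These shares also depend on how reads that match both copies of a pair were counted.

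Of the wider globin list, 10 genes were tested, of which 6 passed the filter only through fetal liver, which favours a higher call, and the other 4 were higher as well. Hba-a2, the second alpha copy, had 124369 and 124385 counts in fetal and 733 and 797 in adult liver. The yolk sac chains were present in fetal liver and had 0 counts in both adult libraries. Hbb-y had 27194 and 31152 counts, Hbb-bh1 had 5460 and 5179, and Hba-x had 4303 and 5521. These 3 chains made up 3.43% (exact 95% interval 3.39 to 3.46) and 4.30% (4.26 to 4.34) of the 7 chains' counts in fetal libraries 1 and 2. The share also depends on how reads that match both copies of an adult pair were counted, which the interval does not cover. In adult liver 0 of 8335 and 0 of 7929 counts were of these chains, which allows shares of up to 0.0442% and 0.0465% (exact 95% interval).

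The counts given to the copies of the adult globin genes also stood in other proportions in the 2 tissues. Hbb-bt had 0.400 and 0.453 counts for each count of Hbb-bs in fetal liver and 0.138 and 0.146 in adult liver, so the ranges did not overlap. Hba-a2 per Hba-a1 was 0.443 and 0.463 in fetal and 0.305 and 0.383 in adult liver. Both ratios rest on near-identical copies and carry the uncertainty of their counting.

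Alas2 followed the globins with a smaller difference. It had 34628 and 25198 counts (1022 and 818 CPM) in fetal liver and 1152 and 1242 counts (77.7 and 80.2 CPM) in adult liver, while fibroblasts and cultures had 2 to 17 counts. The rise from adult to fetal liver was 3.54 ± 0.11 on the log2 scale (SE, n = 2 each, edgeR adjusted p = 5.99e-15), the lowest of the 8 genes. Alas1, the form that other tissues use for the same step, went the other way. It had 1184 and 1102 counts in fetal liver and 34111 and 36795 in adult liver, and its level in fetal liver was lower by 6.05 on the log2 scale (−6.05 ± 0.07 SE, edgeR adjusted p = 7.47e-20).

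Of 16 genes of haem synthesis and its iron and porphyrin transport, Alas2 among them, 13 were higher in fetal than in adult liver, 1 (Alas1) was lower and 2 did not pass the test. Slc25a37, mitoferrin, which brings iron into the mitochondria, had 96511 and 70310 counts in fetal and 1180 and 1339 in adult liver, and rose by 4.95 on the log2 scale. Fech, which puts the iron into the ring, rose by 1.52. The median of the list was 1.83.

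The 2 transcription factors differed in how much of them the adult liver held. Klf1 had 12563 and 10441 counts in fetal liver and 188 and 196 in adult liver, and the rise was 4.81 ± 0.08 (log2 fold change ± SE, n = 2 each, edgeR adjusted p = 1.65e-18). Gata1 had 7591 and 6557 counts in fetal liver and 4 and 5 in adult liver, 0 in fibroblasts and 0 to 2 in the cultures. Its rise was 9.50 ± 0.15 (edgeR adjusted p = 3.18e-18), and the 9 adult counts gave a ratio of 737 (95% counting interval 388 to 1611). Against the fibroblasts, at 0, the bound for Gata1 was at least 4998-fold, while the few counts of Klf1 there gave a ratio of 1524 (95% counting interval 938 to 2666).

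The wider list of erythroid factors, which holds Gata1 and Klf1, had 3 genes (Gata1, Gfi1b and Myb) that passed the filter only through fetal liver. The other 15 were all higher too, with a median of 4.28 on the log2 scale. Tal1, a partner of Gata1 on DNA, had 13661 and 10491 counts in fetal and 43 and 57 in adult liver. Gfi1b, a repressor needed for red cell and platelet precursors, had 3792 and 2973 against 3 and 1. Bcl11a, a silencer of the embryonic globins, had 2683 and 2146 against 2 and 9.

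Slc4a1 had the largest difference of the 8 between the livers. Its counts were 129084 and 90166 in fetal liver, 40 and 43 in adult liver, 0 in fibroblasts and 0 to 11 in the cultures. The rise was 10.26 ± 0.18 (log2 fold change ± SE, n = 2 each, edgeR adjusted p = 6.02e-17), a pooled CPM ratio of 1238 (95% counting interval 999 to 1554). Against fibroblasts the bound was at least 77447-fold.

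The other membrane genes spread widely. Of 19 tested genes of the red cell membrane list, which includes Slc4a1, 8 passed the filter only through fetal liver. Of the other 11, 10 were higher than in adult liver and 1, the water channel Aqp1, was lower (−1.51 ± 0.09 SE on the log2 scale, edgeR adjusted p = 5.08e-11). The median of these 11 was 4.70, from 11.89 for Ermap, 10.26 for Slc4a1 and 10.16 for Ank1 to 0.50 for Cd47 and −1.51 for Aqp1. Kel, a blood group protein and 1 of those 8, had 22369 and 16551 counts against 3 and 4. Icam4 had 0 counts in all 14 libraries.

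Epor had 6527 and 5599 counts in fetal liver and 69 in each adult library, a rise of 5.36 ± 0.11 (log2 fold change ± SE, n = 2 each, edgeR adjusted p = 1.47e-17). Unlike the other 7 genes, it was also well above the floor in fibroblasts, with 136 and 133 counts, so that fetal liver was 47.8-fold above them (95% counting interval 42.3 to 54.1). Fibroblasts held 3.65 and 4.25 CPM and adult liver 4.65 and 4.46 CPM, and this pair did not pass the test (0.21 ± 0.16 SE on the log2 scale, edgeR adjusted p = 0.229). That order depends on the scaling, because in CPM of the library total fibroblasts were at 4.12 and 4.81 and adult liver at 2.01 and 1.97. Erythropoietin itself, Epo, had 16 and 22 counts in fetal liver and 1 and 0 in adult liver.

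Of 16 tested genes of erythropoietin signalling and iron uptake, Epor included, 11 were higher in fetal than in adult liver and 4 were lower, Epo having passed the filter only through fetal liver. Tfrc, the transferrin receptor, rose by 2.65 on the log2 scale, with 39531 and 30738 counts against 2719 and 2516. The 4 lower genes were Cish, Socs2 and Sh2b3, brakes on cytokine signalling, and Tfr2, an iron sensor of hepatocytes. In CPM of the library total, Sh2b3 was higher in fetal liver, at 39.8 against 22.8.

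Of 15 genes of late red cell maturation, 4 (Trim58, Trim10, Hemgn and Tspo2) passed the filter only through fetal liver, and of the other 11, 10 were higher and 1, Alox15, was lower. Hemgn, a nuclear target of Gata1, had 22444 and 16147 counts against 6 and 4, and Bpgm, which makes the ligand that lowers the oxygen affinity of haemoglobin, rose by 2.18 on the log2 scale. Alox15 had 28 and 21 counts in fetal and 25 and 23 in adult liver, and in CPM of the library total it was higher in fetal liver, at 0.902 against 0.693.

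Markers of other blood cells differed in both directions. Of 10 tested megakaryocyte markers 10 were higher in fetal than in adult liver (5 passed the filter only through fetal liver), with a summed CPM of 416 and 514 against 17.5 and 17.7, and 9 of 10 granulocyte and monocyte markers were higher (4 passed only so), at 351 and 427 against 34.3 and 35.8. Macrophage markers had 2 higher and 9 lower of 11, at 373 and 449.7 against 1619.5 and 1694. Lymphocyte markers had 0 higher and 8 lower of 10, at 6.62 and 8.03 against 17.1 and 19.0, and 6 of the 8 stayed lower on library totals alone. The macrophage markers Adgre1 and Mrc1, called lower, were not lower on library totals alone. Their ratios of fetal over adult liver there were 1.03 and 1.25, without a test. Of 12 hepatoblast and hepatocyte markers 2 were higher and 10 lower, at 23152 and 27798 against 567640 and 606337. Their part in the erythroid differences was not tested.

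**Figure D2:**
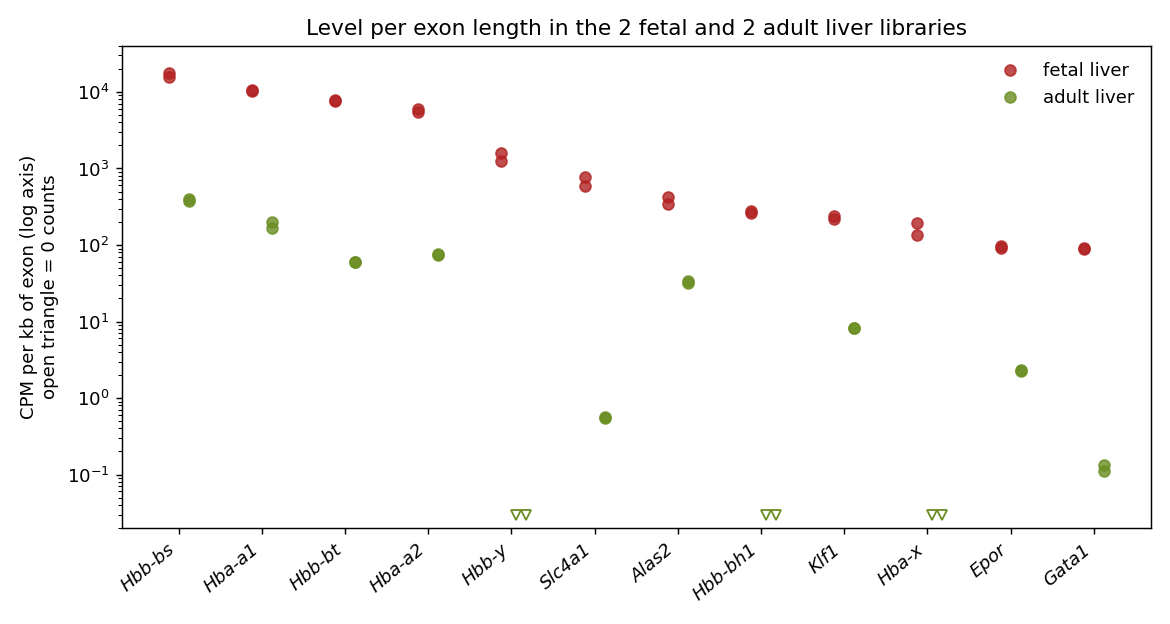
CPM divided by the exon length in kb, on a log axis, for the 8 genes and 4 further globins in the 2 fetal (red) and 2 adult (green) liver libraries, with open triangles for 0 counts. In fetal liver the levels run from 16576 for Hbb-bs down to 89.6 for Gata1, and in adult liver Slc4a1 falls below Alas2, Klf1 and Epor.

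Per kb of exon, the levels in fetal liver were 16576 ± 1263 CPM per kb (SD, n = 2) for Hbb-bs, 10471 ± 387 for Hba-a1 and 7703 ± 85.7 for Hbb-bt. Slc4a1 followed at 689 ± 127, Alas2 at 383 ± 59.9 and Klf1 at 232 ± 14.6. Epor at 94.1 ± 3.83 and Gata1 at 89.6 ± 3.21 closed the order and their libraries overlapped, and with the length of the longest transcript in place of all exons their order turned, to 106 ± 4.33 and 115 ± 4.11. The libraries of the other 6 genes did not overlap with those of their neighbours in the order.

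In adult liver the order was not the same. Hbb-bs stood at 386 ± 21.4 CPM per kb, Hba-a1 at 183 ± 24.2 and Hbb-bt at 59.8 ± 0.883, followed by Alas2 at 32.9 ± 0.752, Klf1 at 8.28 ± 0.00693 and Epor at 2.29 ± 0.0694. Slc4a1, which followed the globins in fetal liver, came below Epor at 0.560 ± 0.0117, above Gata1 at 0.122 ± 0.0155. Both tissues had the same first 3 genes in the same order.

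**Figure D3:**
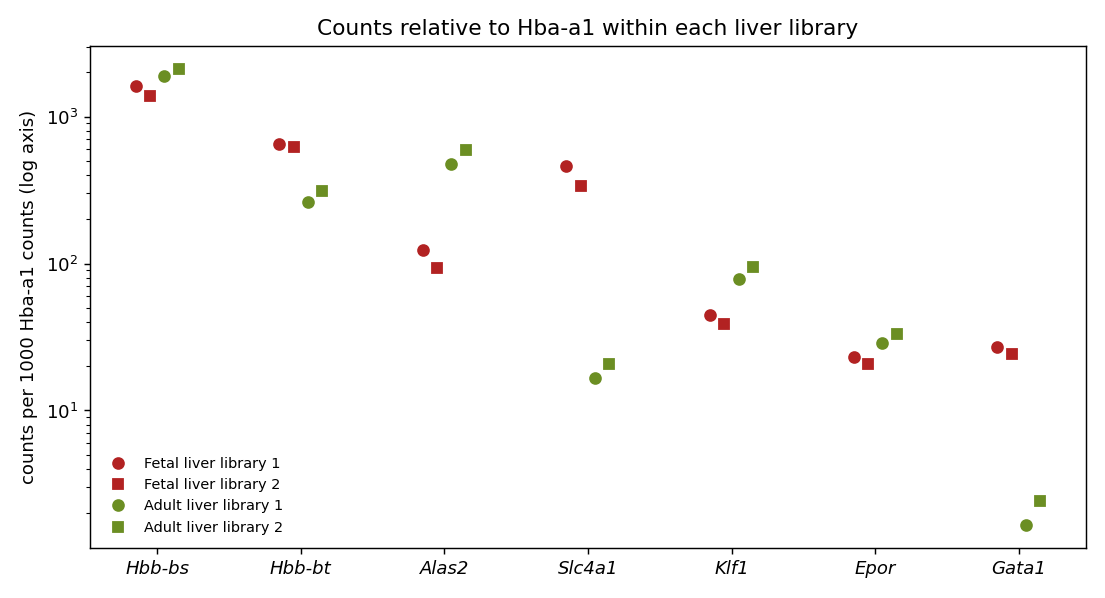
Counts of 7 genes per 1000 counts of Hba-a1 within each of the 4 liver libraries, on a log axis. Slc4a1 and Gata1 are lower in the adult libraries (green) than in the fetal ones (red), Alas2 and Klf1 are higher.

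Counts relative to Hba-a1 within a library need no scaling between tissues. Slc4a1 had 460 and 336 counts per 1000 Hba-a1 counts in fetal liver and 16.6 and 20.7 in adult liver. Gata1 had 27.1 and 24.4 against 1.66 and 2.41. Both were lower in adult liver relative to Hba-a1. Alas2 had 123 and 93.8 per 1000 in fetal and 479 and 597 in adult liver, and Klf1 44.8 and 38.9 against 78.2 and 94.3, so both were higher in adult liver relative to Hba-a1. Epor had 23.3 and 20.8 against 28.7 and 33.2. Per 1000 counts of Hbb-bs in place of Hba-a1, the other 4 genes kept these directions, while Epor was nearly level at 14.4 and 15.1 in fetal and 15.1 and 15.6 in adult liver, so its difference depends on the globin it is set against.

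Adult liver in turn lay above the cells in culture. Against the mean of the 4 culture conditions 8 of 8 genes were higher, where 40.1% of all genes tested were higher, and their median difference was 7.24 on the log2 scale. Gata1 had the smallest difference, 3.31 ± 0.63 (SE, edgeR adjusted p = 0.000141), on 9 adult counts and 7 counts in the 8 culture libraries. With only the libraries compared in the fit the filter removed Gata1, and 7 genes were called. Of the 48 tests that set fetal liver against another condition, all 48 passed. Of all genes, 80.4% passed against adult liver, 83.4% against fibroblasts, 83.2% against 2D-iHs, 83.3% against 2D-iHEs, 83.9% against iHLOs and 83.7% against iHEAs. Of the 40 that set adult liver against fibroblasts or a culture, 39 passed, the exception being Epor against fibroblasts, and of all genes 83.1% passed against fibroblasts, 81.1% against 2D-iHs, 80.8% against 2D-iHEs, 79.8% against iHLOs and 79.4% against iHEAs.

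Between fibroblasts and cultures 16 of 80 tests passed the threshold. Most of the others rest on few counts, since Hbb-bt had 0 counts in all 10 libraries, Hbb-bs 1 in all and Gata1 at most 2 in a library, so that a difference was not detectable at this depth. Of all genes, 77%, 76.2%, 77.4% and 76.9% passed between fibroblasts and 2D-iHs, 2D-iHEs, iHLOs and iHEAs, 58.5% and 58.6% between 2D-iHs and the iHLOs and iHEAs, and 57.7% and 57.9% between 2D-iHEs and these. Between 2D-iHs and 2D-iHEs 4.16% passed, and between iHLOs and iHEAs 1.35%. Klf1 and Epor made 12 of the 16, and Hba-a1 and Slc4a1, on at most 11 counts in a library, the other 4.

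Klf1 had 9 and 7 counts in fibroblasts, 9 and 4 in 2D-iHs, 10 and 9 in 2D-iHEs, 19 and 20 in iHLOs, and 26 and 16 in iHEAs. All 4 3D libraries lay above all 6 libraries of fibroblasts and 2D cultures. In 3D against 2D cultures it was higher by 1.40 ± 0.25 on the log2 scale (SE, n = 4 libraries each, edgeR adjusted p = 9.00e-05), from 0.124 to 0.372 CPM in 2D to 0.565 to 0.782 CPM in 3D. These levels are low beside the 339 and 371 CPM of fetal liver, and Klf1 was 1 of the 3 genes called of 8, where 65.9% of all genes tested were called. With only the libraries compared in the fit, the filter removed Epor and Slc4a1 and Klf1 alone was called.

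Epor had 10 and 6 counts in 2D-iHs, 12 and 6 in 2D-iHEs, 0 and 3 in iHLOs, and 5 and 3 in iHEAs, against the 136 and 133 of fibroblasts. All 8 culture libraries lay below both fibroblast libraries, and each of the 4 cultures was lower in the test, with log2 fold changes from −6.30 in iHLOs to −3.77 in 2D-iHEs. Fibroblasts were 22.6-fold above the pooled cultures (95% counting interval 16.4 to 31.7). In 3D against 2D cultures Epor was lower (−1.68 ± 0.45 SE on the log2 scale, edgeR adjusted p = 0.00311), on 11 counts against 34. Leaving out 1 library moved this value most for the iHLOs, to −3.47 without library 2 and to −1.205 without library 1 (edgeR adjusted p = 0.000412 and 0.0238).

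Slc4a1 was the third gene called in 3D against 2D, on 17 counts against 3, of which 11 were from iHLO library 1 alone. The pooled ratio was 5.86 (95% counting interval 1.69 to 31.2) and the edgeR adjusted p = 0.0482. The log2 fold change was 3.06, and 2.25 without that library (adjusted p = 0.148). The call was lost in 9 of the 14 edgeR fits that left out 1 library (both of 2D-iH, 2D-iHE, iHEA and adult liver, and iHLO library 1), in the other 8 of them at log2 fold changes of 2.91 to 3.28. Of the other 5 genes, Alas2 had 40 counts in the 2D and 22 in the 3D libraries, Hba-a1 had 13 and 13, Gata1 had 4 and 3, Hbb-bs had 1 and 0, and Hbb-bt had 0 in all 8, and none of the 5 passed edgeR's test, with 0 of them at an unadjusted p under 0.05. Whether the step from 2D to 3D differed with and without iECs was tested as an interaction, where 1.48% of all genes tested passed and none of the 8 did (edgeR adjusted p 0.767 to 1.00, with 0 of 8 at an unadjusted p under 0.05).

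**Figure D4:**
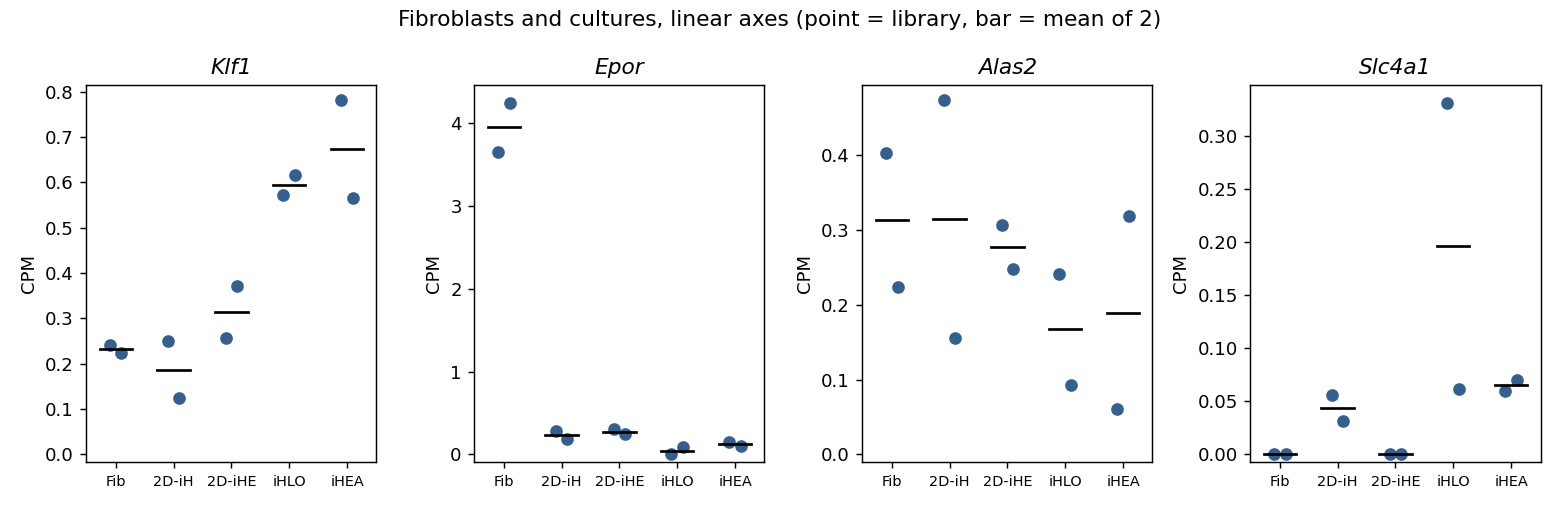
CPM of Klf1, Epor, Alas2 and Slc4a1 in fibroblasts and the 4 cultures, on linear axes, with 1 point per library and a bar at the mean of the 2. Klf1 is at 0.565 to 0.782 in the 4 libraries of the 3D cultures, Epor is highest in fibroblasts at 3.65 and 4.25, and the Slc4a1 mean of iHLOs rests on 1 library at 0.332.

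The 2 fetal liver libraries were then set against each other. With each as a term of its own, the spread came from the other 6 conditions, so that each lone fetal library is assumed to vary as those do, and the test compares these 2 libraries and not conditions. Those conditions hold far fewer counts of these genes. Slc4a1 had 40 and 43 counts in adult liver and 0 to 11 in a culture library, beside 129084 and 90166 in fetal liver. Its spread was thus seen only at a far lower level. Of the 8 genes, 1 was called, Slc4a1, where 4.06% of all genes tested were called (0.965% lower). The count was 2, with Alas2, under DESeq2's size factors, without a filter and without either iHEA library, and leaving out iHEA library 1 or the other raised the genes called from 689 to 1429 and 1423. Slc4a1 fell from 3809 to 2928 CPM, a ratio of library 2 over library 1 of 0.769 (95% counting interval 0.762 to 0.775; log2 −0.38 ± 0.10 SE, edgeR adjusted p = 0.0235).

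Alas2 was close behind, with 1022 and 818 CPM, a ratio of 0.801 (0.788 to 0.814) and an edgeR adjusted p of 0.0524, which ranged from 0.000260 to 0.981 over the alternatives tried. The transcription factors and Epor were nearly level. Klf1 had a ratio of 0.915, Gata1 of 0.951 and Epor of 0.944, with adjusted p 0.485 to 0.794 (edgeR). Among the globins Hbb-bs was at 0.898, Hbb-bt at 1.02 and Hba-a1 at 1.05. Thus 6 of the 8 lay below 1, and of 11801 genes with at least 100 counts in 1 of the 2 libraries 53.5% did, with a median of 0.991.

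**Figure D5:**
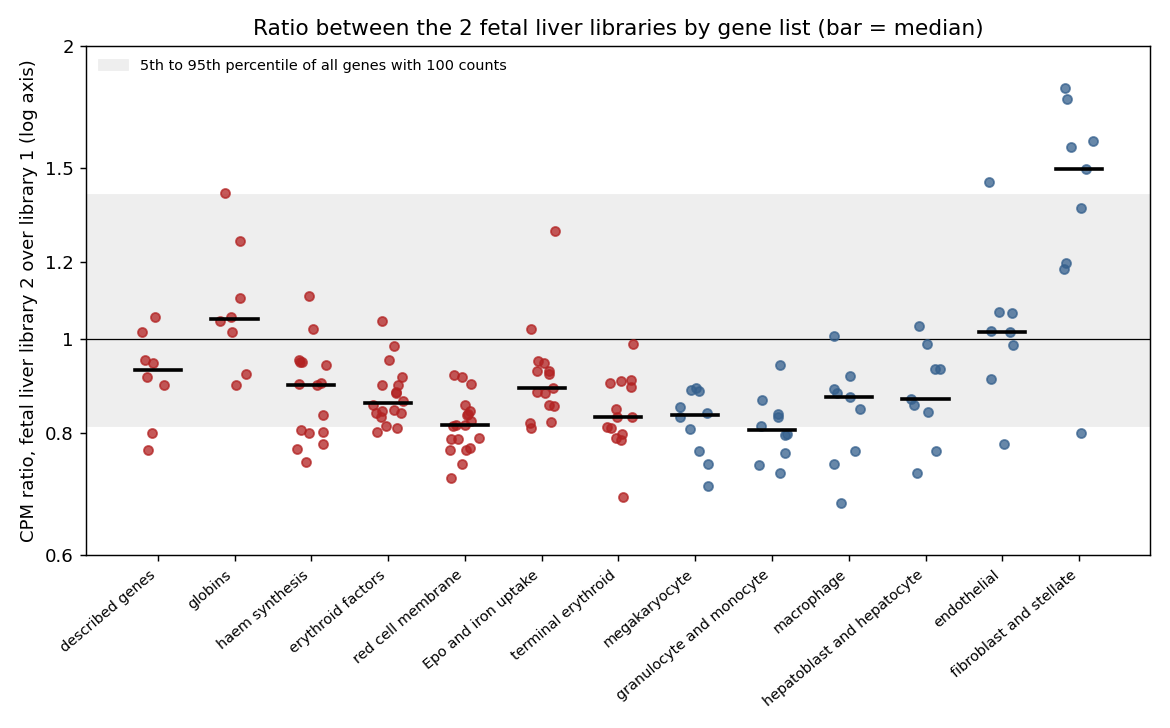
CPM ratio of fetal liver library 2 over library 1 on a log axis for genes with at least 100 counts in 1 of the 2, by gene list, with a bar at each median and a grey band for the 5th to 95th percentile of all such genes (0.814 to 1.41). The red cell membrane genes all lie below 1 with a median of 0.815, the globins have a median of 1.05, and the fibroblast and stellate markers have a median of 1.49.

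Of the 3 yolk sac chains 2 were called higher. Hba-x rose in library 2 by a ratio of 1.41 (95% counting interval 1.36 to 1.47, edgeR adjusted p = 0.00352) and Hbb-y by 1.26 (1.24 to 1.28, edgeR adjusted p = 0.0155). Both passed the filter only through fetal liver. In the 6 conditions that supply the spread Hbb-y had 0 counts and Hba-x at most 2 in a library. These p-values thus rest on the spread of other genes. Hbb-bh1, the remaining yolk sac chain, was at 1.04 and did not pass, below the 1.10 of the adult chain Hba-a2.

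Several membrane and haem genes were also lower in library 2. Of 19 tested genes of the red cell membrane list 19 had a ratio below 1, and 11 were called lower, the lowest being Epb42, a protein that ties band 3 to the skeleton, at 0.721. Ank1, the anchor between band 3 and spectrin, was at 0.790. Of 16 haem genes 14 lay below 1 and 5 were called lower, among them Cpox at 0.747, Fech at 0.780, Slc25a37 at 0.802 and Abcb10 at 0.835. Of 15 late maturation genes 15 lay below 1 and 4 were called lower (Trim10, Ube2o, Xpo7 and Hemgn). Trim10, Hemgn and 8 of the 19 membrane genes passed the filter only through fetal liver. The other conditions held few or no counts of these to give their spread. Of the 18 erythroid factors 17 lay below 1 and none was called by edgeR, with 8 at an unadjusted p under 0.05 and 3 called lower under DESeq2's size factors. On library totals alone 7 membrane, 3 haem and 3 late maturation genes were called lower, and 1 late maturation gene and 2 factors lay above 1. The median log2 differences of these 4 lists were −0.29, −0.16, −0.27 and −0.22, and that of all genes tested was 0.

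Other genes differed between the fetal libraries as well. Of 9 fibroblast and stellate markers 6 were called higher in library 2 (3.09% of all genes were), Col1a1 the most at a ratio of 1.81, and their summed CPM was 1799 in library 1 and 2961 in library 2. Hepatoblast and hepatocyte markers summed to 27798 and 23152 CPM with none of 12 called by edgeR and 3 at an unadjusted p under 0.05, and all 10 megakaryocyte markers and all 10 granulocyte and monocyte markers tested lay below 1, with Ppbp called. Of 11 macrophage markers 9 lay below 1 and 1 was called lower. Of 10 lymphocyte markers 8 lay below 1, with none at an unadjusted edgeR p under 0.05. Of 8 endothelial markers 3 lay below 1 and 1 was called lower. The largest ratios among genes with at least 100 counts were those of Nppa (3 and 110 counts), Myh6 (126 and 1923), Tbx4 (15 and 145), Mybpc3 (32 and 267) and Ankrd1 (25 and 188). Nppa, Myh6 and Mybpc3 are known from heart muscle. The lowest were 4 genes of the Y chromosome, Uty (310 and 48), Kdm5d (500 and 81), Ddx3y (885 and 151) and Eif2s3y (770 and 146), and then Mir703 (136 and 49). The part of these differences in the erythroid ratios was not tested.

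Relative to Hba-a1 within each fetal library, Slc4a1 went from 460 to 336 counts per 1000 and Alas2 from 123 to 93.8. Per 1000 counts of Hbb-bs these 2 also fell, Slc4a1 from 284 to 243 and Alas2 from 76.2 to 67.9. Gata1 went from 27.1 to 24.4 per 1000 Hba-a1 counts but from 16.7 to 17.7 per 1000 Hbb-bs counts. In CPM, the lower fetal library lay above both adult libraries for each of the 8 genes.

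Genes with the profile most like that of the 8 were found by Pearson's r over the 14 libraries with the mean of the 8 scaled profiles, among 13978 genes. The 10 highest that are not among the 8 were Grap2, Tal1, Ngp, A2m, AI504432, Treml2, Hba-a2, Ackr1, Fcrls and Gas5, from 0.9985 for Grap2 to 0.9923 for Gas5. In all 177 genes exceeded 0.95, and the 8 genes themselves ranged from 0.907 for Epor to 0.997 for Hbb-bt. The 14 points are 2 fetal, 2 adult and 10 cultured libraries, so such an r rests mainly on the fetal and adult levels. A high r does not mean near absence elsewhere. Gas5 had 1228 to 1499 counts in fibroblasts and 1000 to 1756 in cultures, beside 1518 and 1586 in adult liver. Grap2, an adaptor of T cell and platelet signalling, had 2247 and 1612 counts in fetal liver, 21 and 24 in adult liver and 0 to 1 in the other 10 libraries.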

How the data were processed

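RNA-seq counts of 14 mouse libraries were analysed. The authors trimmed the reads with Trimmomatic 0.36, aligned them to mm10 with HISAT2 and counted them per gene with HTSeq. The deposited values are raw counts per gene, whole numbers that were not normalized. Cufflinks is also named in the submitters' processing notes. The annotation release, the strand setting and the treatment of reads that match several genes are not given in the sources used here.

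Genes were kept by filterByExpr of edgeR 4.0.16 (minimum count 10, R 4.3.3, limma 3.58.1), leaving 16987, and scaled by TMM. Each comparison was tested with edgeR's quasi-likelihood test over all 14 libraries with 1 term per condition, and p-values were adjusted by Benjamini-Hochberg over all genes tested, with a threshold of 0.05. For the 2 fetal liver libraries, each had a term of its own. The tests were also run on simulated data, with an outcome that is not reported here. CPM are counts scaled to a common size by the TMM-adjusted totals, levels per kb use the union of the exons (GENCODE, GRCm38), and a floor of 3 counts over a group stands for 0. Ratios carry 95% exact intervals for counting error only.

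The genes and lists were chosen with earlier results of these data known. Named beside the 8 genes are those of 6 erythroid lists, 9 lists of markers of other cell types, the 10 genes most like the 8, and the 5 with the largest ratio each way between the fetal libraries. Other scalings, DESeq2 1.42.0, no filter, the replicate number as a block, fits of only the libraries compared and leaving out each library were tried. Samples of 1 number did not deviate together (correlations −0.0524 to 0.0290), so the numbers were not taken as pairs. The second 3D-iHEA column carries the library number of the first in the table, and the blocked fit leaves it out. Total counts of 20851489 to 35143325 set the precision, and low counts have intervals several times as wide as those of the globins. Some genes of the lists are counted but their own values are not reported here.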

Additional observations from a re-analysis of the deposited data

Results flagged for a closer look

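In groups of 4 libraries, the 4 of the 2D and the 4 of the 3D cultures, the highest or lowest library was compared with the others by its gap over the whole range. Of 13 such tests 3 passed the 95% limit. That limit, which chance passes about 1 in 20 times, is for continuous values and does not hold for counts of 0 and 1. Slc4a1 was at 0.332 CPM (11 counts) in iHLO library 1, above the other 3 libraries of the 3D cultures with 2 counts each. Hbb-bs was at 0.0278 CPM (1 count) in 2D-iH library 1 and at 0 in the other 3 libraries of the 2D cultures. Gata1 was at 0 CPM in iHLO library 2, where each of the other 3 libraries of the 3D cultures had 1 count. The last 2 rest on 1 count per library, which is within counting error.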

How the results depend on the processing

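Of 1246 results recomputed under an alternative, 1218 kept their direction and their side of the threshold (a count within 1.5 times), 0 reversed, 11 lost a call, 4 gained one and 13 moved. In the comparisons of fetal liver with adult liver, fibroblasts and cultures, 8 of 8 genes were called under each alternative run. Between adult liver and cultures it was 8 of 8, except 7 when only the libraries compared were fitted, where the filter removed Gata1. In fetal library 2 against library 1 the number of the 8 called went from 1 to 2 with DESeq2's size factors and without a filter, and from 1 to 2 over the fits that left out 1 library (2 without either iHEA library), the added gene being Alas2. There 689 genes were called in all, 437 by DESeq2's Wald test, and 511 to 1429 with 1 library left out, with 1429 and 1423 without the one or the other iHEA library. The share of higher calls there was 76.2%, and 86.7% on library totals alone. Between 3D and 2D cultures 3 of the 8 were called, 1 when only the libraries compared were fitted, since the filter then removed Slc4a1 and Epor, and 2 to 3 with 1 library left out. The Slc4a1 call was lost with DESeq2's size factors (adjusted p = 0.0539) and with the replicate block (adjusted p = 0.0610). The replicate block called 8 of 8 between fetal and adult liver and changed no other call of the 8 genes. The cause of these changes was not tested. On library totals alone the share of higher calls rose from 53.8% to 81.9% between fetal and adult liver and fell from 48.7% to 25.9% between adult liver and cultures, with median shifts of 1.45 and −1.38. With the longest transcript as length, levels in fetal liver moved for 5 of 8 genes, to 20272 CPM per kb for Hbb-bs, for example. The replicate block could not be fitted to the 2 fetal libraries. Over the 21 pairs of conditions 103 of 168 tests passed, and 92 to 108 under the alternatives. Low counts limit the results in the cultures, where Hba-a1, Hbb-bs, Hbb-bt and Gata1 had at most 6 counts in a library.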
